A study of Mus musculus with 78 samples.

Results

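The right common carotid artery (RCA) of vehicle-treated mice was compared between 24 h and 12 h after surgery, with 5 arrays at 24 h and 5 at 12 h, of 78 arrays in the series. The members were all arrays whose titles carry the RCA, the vehicle and one of these times, and each array came from a different mouse, so the groups were not paired. Surgery was a partial ligation of the left common carotid artery (LCA) in all animals, with the RCA as the unligated control vessel. Vehicle was given by mouth each day from 2 days before surgery. The groups given atorvastatin at 10 mg/kg per day on the same schedule, used below as a second pair of times, also had 5 RCA arrays at 24 h and 5 at 12 h. RNA was flushed from the vessel lumen and is enriched in endothelial RNA rather than pure. The labels used here give no strain, age or hour of the day at which vessels were taken. The endothelial identity of the samples held on all arrays, with 13 of 15 markers above the array median on each of the 10 (Kdr and Robo4 were not). No marker of skeletal muscle, Schwann cells, T cells, B cells, neutrophils or thyroid was above the median on all 10. Markers of other types were: 6 of 10 for fibroblasts and adventitia, 3 of 4 for lymphatic endothelium and 3 of 8 for smooth muscle. So were 2 of 12 macrophage markers, 1 of 5 adipocyte markers and 1 of 5 platelet markers.

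The RCA carries undisturbed flow, and its endothelium is the usual reference against which the ligated vessel is read. Between 12 h and 24 h it may nonetheless be exposed to what the whole animal goes through. Examples are recovery from surgery, changes in circulating hormones such as glucocorticoids, changes in feeding, and the time of day. Hormone levels and feeding in these mice were not tested. Glucocorticoids act through a nuclear receptor that switches on a known set of genes, and fasting switches on FoxO targets and genes of fatty acid use. Circadian genes cycle in endothelium as in other tissues, with Arntl and Clock driving the Per, Cry, Nr1d and Dbp genes that peak at another time of day.

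Genes were called at an adjusted p under 0.05 (limma with Benjamini-Hochberg adjustment over 11344 genes). Of these, 2055 were called between 24 h and 12 h, which is 18.1% of the genes tested: 1133 were higher (9.99%) and 922 lower (8.13%) at 24 h. A change of at least 2-fold was reached by 225 of the rises and 116 of the falls. All 5 arrays at 24 h lay above all 5 at 12 h for 541 genes (4.77%), and below them for 492 (4.34%). The count depended on single arrays: it was 989 without replicate 4 at 12 h, 1180 without replicate 3 at 12 h, 1326 without replicate 3 at 24 h and 1345 without replicate 4 at 24 h. When each of the 10 arrays was left out in turn, 769 genes were called every time.

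A control measure related to RNA integrity also differed between these groups. The arrays carry control probe sets at the 3' and the 5' end of the Gapdh mRNA. Labelling starts at the 3' end, so that a larger 3' minus 5' difference is what shorter RNA or shorter labelled copies give. It was 4.2, 4.135, 3.63, 4.01 and 4.196 on the log2 scale at 24 h, against 4.44, 4.68, 5.24, 4.79 and 4.57 at 12 h. Every array at 24 h thus had a smaller end difference than every array at 12 h. The means were 4.04 ± 0.24 at 24 h and 4.74 ± 0.31 at 12 h (SD, n = 5 each), a difference of -0.71 with p = 0.00794 in a two-sided exact permutation test, the smallest p that 5 against 5 arrays allow. The 5' probe set averaged 7.72 ± 0.21 at 24 h and 6.79 ± 0.43 at 12 h, and the 3' probe set 11.75 ± 0.04 at 24 h and 11.54 ± 0.18 at 12 h (SD, n = 5 each). The corresponding difference for the b-actin control was -0.19 (exact permutation p = 0.365, n = 5 each), with overlapping groups.

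**Figure D1:**
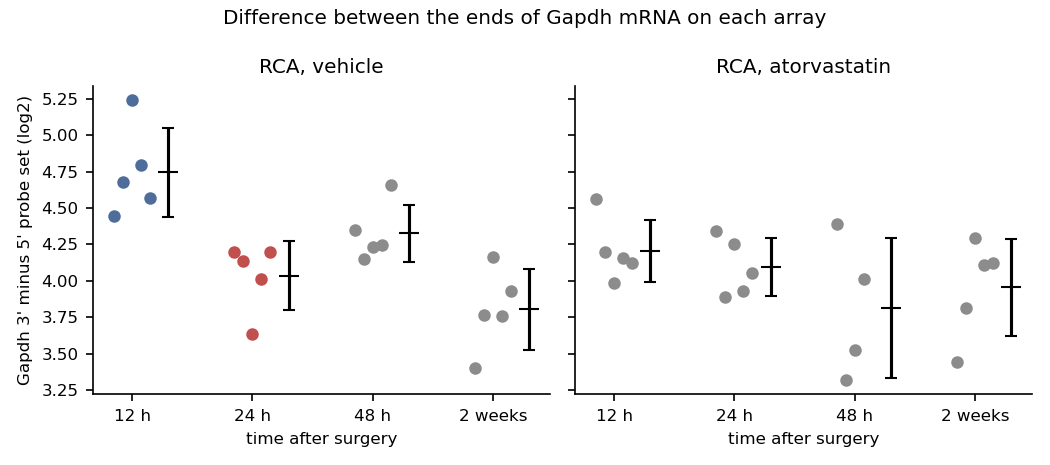
Gapdh 3' minus 5' probe set difference (log2) on each RCA array, by time after surgery, in vehicle-treated and atorvastatin-treated mice; points are arrays, and the black marks are means with SD. The 5 vehicle arrays at 12 h lie between 4.44 and 5.24 and do not overlap the 5 at 24 h (3.63 to 4.2).

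With the Gapdh end difference as a covariate over the 39 RCA arrays, 51 genes were called between 24 h and 12 h in vehicle-treated mice (0.45% of those tested), 24 higher and 27 lower. All 51 were among the 2055. The median difference of the rises was 0.72 without the covariate and 0.50 with it, that of the falls was -0.62 and -0.48, and the median standard error was 0.190 and 0.229. The groups do not overlap in the covariate, so time and end difference can be told apart only through the spread within groups, and the number called ranged from 17 (without replicate 1 at 24 h) to 171 (without replicate 5 at 12 h). Only 16 of the 51 were called with every array left out in turn. With replicates 1 and 5, the count lay outside 1.5 times its full-set value without replicate 4 at 24 h (28), replicate 5 at 24 h (24) and replicate 4 at 12 h (26).

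In the 29 RCA arrays outside the comparison, the slope of each gene on the Gapdh end difference was fitted within groups. The slope was below 0 for 83.4% of the genes that rose, against 44.8% of all genes, and above 0 for 83.8% of those that fell, against 55.2% of all genes. These arrays entered the choice of genes through the shared estimate of the spread. As part of all 78 arrays they also entered the choice of probe sets and the filter on dim genes. No slope passed the adjusted threshold in limma (831 had an unadjusted p under 0.05). What part of the 2055 differences goes with RNA ends and what part with time was not tested further, and for a single gene the 2 can be told apart only as far as the covariate fit allows. Values with the covariate are therefore given beside those without it.

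**Figure D2:**
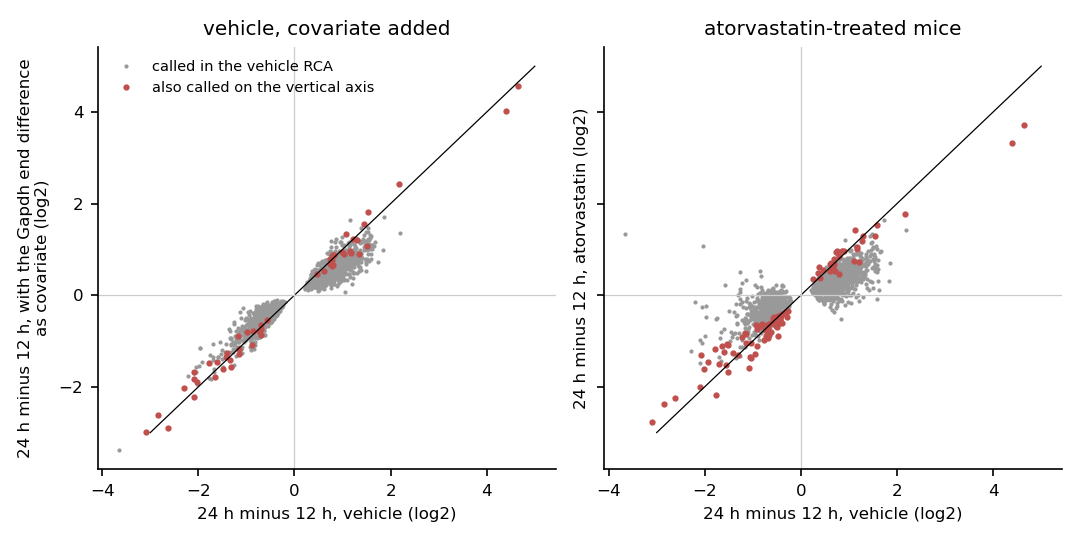
Log2 difference between 24 h and 12 h of the 2055 called genes in vehicle-treated mice (horizontal axes) against the same difference with the Gapdh end difference as covariate (left) and in atorvastatin-treated mice (right); red points were also called on the vertical axis, and the line marks equal values. With the covariate 51 genes were called, and 96 genes were called in both treatments.

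Of 23 tested glucocorticoid-responsive genes 14 were lower at 24 h and none higher, against 8.13% lower among all genes, and all 23 differences were below 0, with a median of -0.95 against -0.02 over all genes. In 11 of the 23, all of them among the 14, the arrays at 24 h all lay below those at 12 h, against 4.34% of all genes. The calls and this separation come from the same arrays. Leaving out single arrays left 11 to 16 members lower. With the Gapdh covariate the median was -0.80, and 5 members were lower: Cdkn1a, Pdk4, Mt1, Cebpd and Cebpb, the last of which the naming rule did not pick. Of these only Cdkn1a was called with the covariate whichever array was left out: Pdk4 was not called in 9 of the 10 such fits, and Mt1, Cebpd and Cebpb in 6 each.

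Cdkn1a, which encodes the cell cycle inhibitor p21, had log2 levels of 5.53, 6.38, 7.01, 6.84 and 6.37 at 24 h, against 9.25, 9.06, 8.35, 9.48 and 9.13 at 12 h. The groups did not overlap, and Cdkn1a was 6.18-fold lower at 24 h (log2 difference -2.63 ± 0.35 SE, limma adjusted p = 1.26e-05). With the covariate the difference was -2.91 (adjusted p = 0.000119). A second probe set of the gene gave -1.01, below 0 as well. The 12 largest rises and the 12 largest falls were picked only from called genes without overlap. Lack of overlap was thus fixed by the choice for all of these, such as Cdkn1a, Pdk4, Fabp4, Sele, Ccn2, Gja5 and Sphk2. Pdk4, the kinase that shuts pyruvate out of the mitochondrial citric acid cycle, had 6.84, 6.58, 6.07, 7.002 and 6.46 at 24 h, against 8.75, 8.76, 9.36, 9.54 and 8.002 at 12 h, with no overlap. Its log2 difference was -2.29 ± 0.40 (adjusted p = 0.00044) and -2.03 with the covariate (adjusted p = 0.0490).

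Mt1, a metallothionein that binds zinc and copper, had 9.24, 9.25, 9.82, 9.12 and 9.16 at 24 h, against 10.63, 11.36, 10.58, 11.37 and 10.69 at 12 h, and its second probe set moved alike (-1.49, beside -1.61). Fkbp5, the FK506-binding co-chaperone that holds back the glucocorticoid receptor, had 5.68, 6.40, 6.75, 6.63 and 6.69 at 24 h, against 7.86, 8.39, 7.10, 8.80 and 8.52 at 12 h. The groups were apart and a second probe set gave -0.70, but its difference of -1.71 ± 0.40 (adjusted p = 0.00458) was not called with the covariate (-1.42, adjusted p = 0.168). The transcription factor Cebpd fell by 1.40 on the log2 scale (adjusted p = 0.000354), and by 1.27 with the covariate (adjusted p = 0.0394). Klf9, Tsc22d3, Dusp1 and Ddit4, which respond to glucocorticoids in many tissues, were not called and were picked here after their values were seen; their differences were -0.18, -0.25, -0.20 and -0.44.

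**Figure D3:**
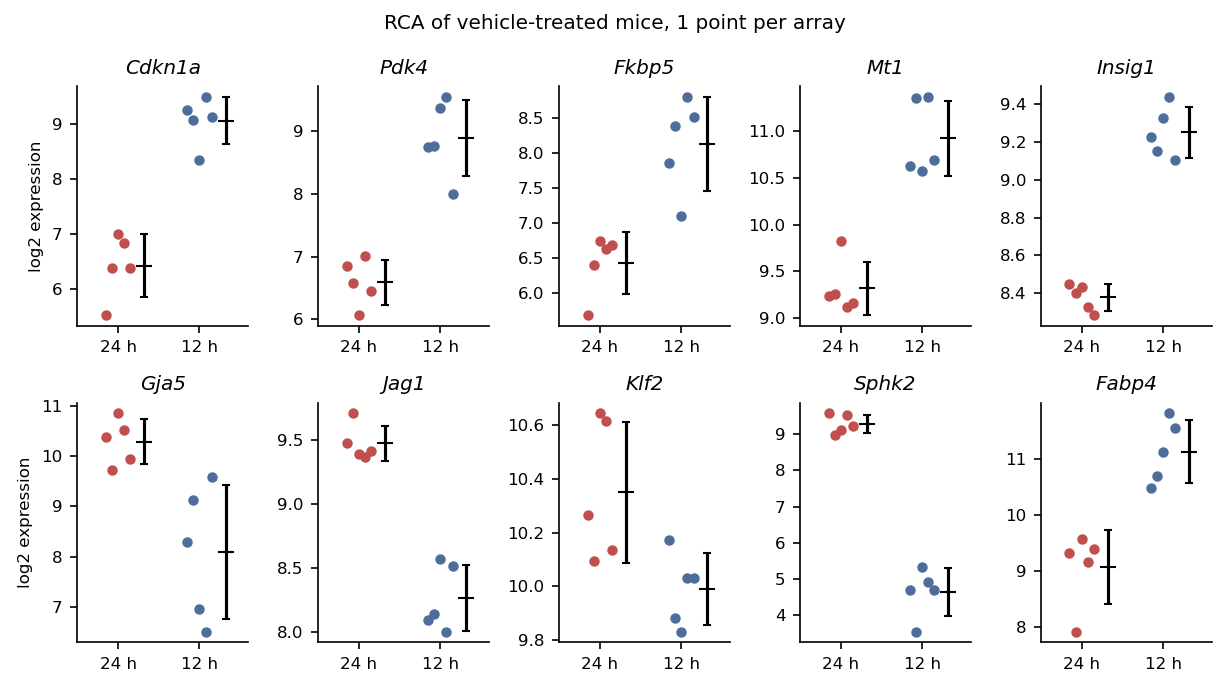
Log2 expression of 10 genes on each RCA array of vehicle-treated mice at 24 h and 12 h, 1 point per array, with the mean and SD in black; vertical axes differ between genes. Cdkn1a, Pdk4, Fkbp5, Mt1, Insig1 and Fabp4 lie lower at 24 h and Gja5, Jag1 and Sphk2 higher, all without overlap, while the Klf2 groups overlap. For Cdkn1a, Pdk4, Fabp4, Gja5 and Sphk2 lack of overlap was a condition of being picked.

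Among genes of fasting, FoxO and fatty acid oxidation, 8 of 19 tested were lower at 24 h and 1 higher, with a median of -0.60. That is 47.4% of the list called, against 18.1% of all genes. This list shares Pdk4, Angptl4 and Klf15 with the glucocorticoid list. Foxo3, a transcription factor of the fasting response, fell by 0.82 on the log2 scale (adjusted p = 0.000865; -0.52 and -0.13 at 2 other probe sets), and Angptl4, a secreted inhibitor of lipoprotein lipase, fell by 1.03 (adjusted p = 0.00126), both with groups apart. Cpt1a, which brings fatty acids into mitochondria, was the one member that rose, by 0.51 (adjusted p = 0.00397). With the covariate only Pdk4 was called.

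Fabp4, a fatty acid binding protein of adipocytes that endothelium also makes, had 9.32, 7.93, 9.56, 9.17 and 9.40 at 24 h, against 10.48, 10.68, 11.11, 11.80 and 11.54 at 12 h. Its difference of -2.05 ± 0.64 (adjusted p = 0.0239) was not called without replicate 2 at 24 h (adjusted p = 0.0594) or replicate 4 at 12 h (adjusted p = 0.0730). Fabp4 is itself on the adipocyte list. The mean level of the other 4 measured adipocyte markers was 3.06 to 3.48 at 24 h, against 3.19, 3.604, 3.74, 5.39 and 5.24 at 12 h, highest in replicates 4 and 5. Adiponectin and leptin (Adipoq and Lep), which define the type, were not above the array median on all 10 arrays. With the mean of these 4 markers as a covariate, an alternative added after seeing the data, Fabp4 stood at -1.18 (adjusted p = 0.0419), and 6 members of the fasting list, which also holds Fabp4, were lower in place of 8. With the Gapdh covariate Fabp4 was not called (-1.56, adjusted p = 0.359). In such bulk RNA, fewer cells of a type and less RNA per cell cannot be told apart.

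Cholesterol genes were mostly not called: 3 of 15 were lower and none higher, with a median of -0.09. That is 20% of them, against 8.13% lower and 18.1% called in either direction among all genes. Insig1, which holds the sterol-sensing SCAP and SREBP proteins in the endoplasmic reticulum, had 8.45, 8.40, 8.43, 8.33 and 8.29 at 24 h against 9.23, 9.15, 9.33, 9.44 and 9.10 at 12 h. It was lower in every array, by -0.87 ± 0.13 (adjusted p = 3.56e-05), and was called with the covariate too (-0.79, adjusted p = 0.00752). Its relative Insig2 fell by 0.50 on the log2 scale (adjusted p = 0.00458) and Idi1, an enzyme of the isoprenoid step, by 0.70 (adjusted p = 0.0225); neither was called with the covariate, and Idi1 was not called without replicate 3 or 4 at 12 h or replicate 4 or 5 at 24 h.

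Promoter windows of 250 bases before the start were searched on both strands for the E-box (CACGTG) bound by Clock and Arntl, the D-box (TTATGTAA) bound by Dbp, the paired heat shock element (GAANNTTC) and the cAMP response element (TGACGTCA). The windows come from RefSeq (GRCm38.p6), and 92 of 118 named genes had one. An E-box was found for 11.8% of genes that rose, 10.5% of those that fell and 10.1% of all tested genes with a window. The other shares were likewise near those of all tested genes, at 0.54% and 0.41% against 0.55% for the D-box, 4.35% and 5.59% against 6.06% for the heat shock element, and 3.26% and 2.04% against 2.92% for the cAMP response element. Insig1 and Lonrf3, which fell and were called with the covariate and under both treatments, hold an E-box, shown in capitals in the last 150 bases before the start. Among the named genes an E-box was also found for Lats2, Calr and Rps19, which rose, and for Dnajb9, Bnip3 and Fkbp5, which fell. The cAMP response element was found for Coa7, Flt1 and Rpl13, which rose and are not shown. The stretches shown for Insig1 and Lonrf3 lie at chr5:28071262-28071411 and chrX:36328259-36328408, both on the plus strand. A match is a description of the letters only.
Insig1: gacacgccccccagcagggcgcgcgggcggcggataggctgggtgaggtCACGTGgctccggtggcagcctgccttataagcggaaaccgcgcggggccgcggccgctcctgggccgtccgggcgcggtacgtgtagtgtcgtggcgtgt
Lonrf3: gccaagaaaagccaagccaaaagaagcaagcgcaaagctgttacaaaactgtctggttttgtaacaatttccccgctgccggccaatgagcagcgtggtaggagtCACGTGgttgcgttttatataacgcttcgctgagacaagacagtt

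Among 16 tested genes of Notch signalling and arterial identity 5 were higher and none lower (median 0.30), and 5 or 6 were so without single arrays. The 5 are 31.25% of the list, against 9.99% higher and 18.1% called in either direction among all genes. Jag1, the Notch ligand of arterial endothelium, had 9.48, 9.71, 9.40, 9.37 and 9.42 at 24 h, against 8.10, 8.14, 8.57, 8.004 and 8.52 at 12 h. It rose by 1.21 ± 0.19 (adjusted p = 0.000124), its second probe set gave 1.37, and it was called with the covariate (1.23, adjusted p = 0.00580). Gja5 encodes connexin 40 of arterial gap junctions, and had 10.39, 9.73, 10.84, 10.52 and 9.94 at 24 h, against 8.30, 9.12, 6.97, 6.52 and 9.59 at 12 h. The 12 h arrays spread over 3 log2 units, with replicates 3 and 4 lowest; the rise of 2.19 ± 0.47 (adjusted p = 0.00276) became 1.35 with the covariate (adjusted p = 0.236). The receptor Notch1 rose by 0.80 and the netrin receptor Unc5b by 1.25, both without overlap and neither called with the covariate.

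Among 15 endothelial markers 6 were higher and none lower, with a median of 0.33. That is 40% of them, against 9.99% higher and 18.1% called in either direction among all genes. Icam2, an adhesion protein of resting endothelium, rose by 1.52 ± 0.24 (adjusted p = 0.000124; 1.08 with the covariate, adjusted p = 0.0490). Tie1, an orphan receptor of the angiopoietin system, rose by 1.55 ± 0.31, and Cdh5, the cadherin of endothelial junctions, by 0.63 ± 0.15 (0.23 at a second probe set). With the covariate Tie1 stood at 1.21 (adjusted p = 0.124) and Cdh5 at 0.49 (adjusted p = 0.209), and Icam2 was not called with it in 8 of the 10 fits that left out an array. Pecam1, Tek, Erg and Emcn, equally defining, were not called (0.31, 0.10, -0.01 and 0.05) and were picked after their values were seen. The mean level of the 15 markers was 9.49 to 9.69 at 24 h and 8.88 to 9.50 at 12 h, and 3 markers in place of 6 were called without replicate 3 or without replicate 4 at 12 h. Replicate 3 at 12 h was also the array with the largest Gapdh end difference and had a smooth muscle marker level of 7.54, against 4.75 to 5.05 in the other 12 h arrays and 4.94 to 5.32 at 24 h.

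Of 17 genes associated with laminar flow 7 were higher and 1 lower (median 0.36, and 0.19 with the covariate, when none was called). Without the covariate 47.1% of the list were thus called, against 18.1% of all genes. Without single arrays 3 to 6 were higher. The endothelial nitric oxide synthase Nos3 had 8.55, 8.83, 8.90, 9.21 and 8.19 at 24 h, against 8.47, 7.91, 8.04, 8.25 and 8.25 at 12 h; these overlap, and the rise of 0.55 ± 0.18 (adjusted p = 0.0334) was 0.18 with the covariate and was not called without any 1 of 6 arrays, replicates 2, 3 and 4 at either time. Klf2, the flow-induced transcription factor, had 10.27, 10.09, 10.64, 10.61 and 10.13 at 24 h, against 10.17, 9.88, 9.83, 10.03 and 10.03 at 12 h, and was not called (0.36 ± 0.16, adjusted p = 0.102). Cyp1b1, a cytochrome P450 induced by laminar shear, went the other way, at -0.88 ± 0.19 (adjusted p = 0.00239) with groups apart, and at -0.68 with the covariate (adjusted p = 0.146).

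Of 18 inflammatory and adhesion genes 2 were higher and 2 lower, or 22.2% against 18.1% of all genes, with a median of -0.03, and none was called with the covariate. Vcam1 and Icam1, the adhesion molecules that leukocytes bind, differed by 0.02 ± 0.22 and -0.04 ± 0.12. Sele, the E-selectin that activated endothelium puts on its surface, had 5.07, 7.13, 5.89, 5.08 and 5.24 at 24 h, against 7.98, 8.07, 7.29, 7.605 and 7.64 at 12 h. The groups were apart (-2.03 ± 0.64, adjusted p = 0.0262; -1.94 with the covariate, adjusted p = 0.265), but leaving out any of 4 arrays, replicates 1, 4 and 5 at 24 h and replicate 4 at 12 h, raised the adjusted p to between 0.0532 and 0.0666. The chemokine Cxcl1 rose by 0.68 (adjusted p = 0.0465) and was not called in 7 of the 10 fits that left out an array (all but those without replicate 4 at 24 h or replicate 1 or 5 at 12 h). The interferon regulatory factor Irf1 rose by 1.11, and was not called without replicate 3 at 12 h (0.73, adjusted p = 0.0610). Interferon response genes had 2 of 14 higher and 1 lower, and heat shock proteins 1 of 20 higher and 1 lower, none of them called with the covariate. Hspa8, the constitutive Hsc70, stood at 0.07 ± 0.07.

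**Figure D4:**
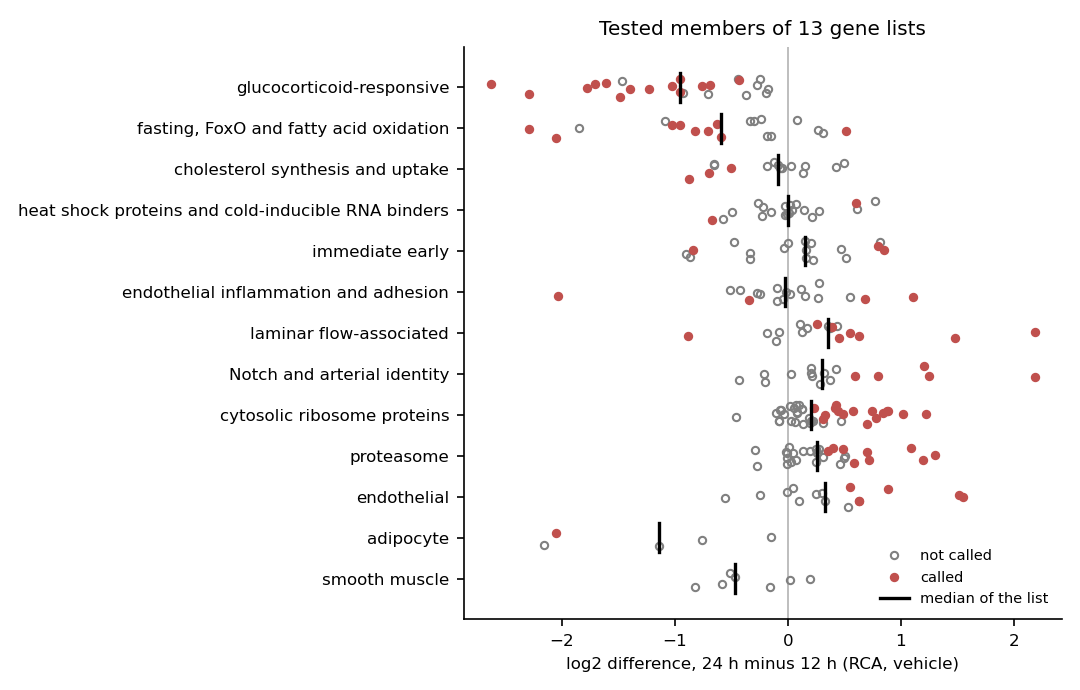
Log2 difference between 24 h and 12 h in the vehicle RCA for every tested member of 13 gene lists; filled points were called, open points were not, and the black bar is the median of the list. All 23 glucocorticoid-responsive members lie left of 0, and the 3 lists of laminar flow, Notch and endothelial genes have medians between 0.30 and 0.36.

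Among housekeeping genes, cytosolic ribosome proteins had 16 of 40 members higher and none lower (median 0.20), the proteasome 9 of 30 (median 0.26), and the nuclear-encoded respiratory chain 9 higher and 2 lower of 39 (median 0.11). The shares called were 40%, 30% and 28.2%, against 18.1% of all genes. The ribosomal proteins Rpl13 and Rplp0 rose by 0.74 and 0.88, and the proteasome subunits Psmb4 and Psmd7 by 1.20 and 1.31, all without overlap. A second probe set gave -0.42 for Rpl13 and 0.21 for Psmd7, and ribosomal proteins have near-identical gene copies that a probe set may also read. None of these members was called with the covariate. Without replicate 3 at 12 h 2 ribosomal proteins (Rplp0 not among them), 4 proteasome subunits and 4 respiratory chain genes were higher, and without replicate 4 at 12 h the counts were 7 (again without Rplp0), 4 and 4. Ribosome biogenesis (1 of 22 lower) and splicing factors (1 of 27 in each direction) fell short of the 18.1% called among all genes, and none of these was called with the covariate.

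None of the members of the next lists was called with the covariate. Percentages here are the members called in either direction without it, against 18.1% of all genes. Immediate early genes had 2 of 18 higher and 1 lower (16.7%), and TGF-beta and BMP genes 3 of 20 higher and 2 lower (25%). YAP/TAZ targets had 3 of 10 higher and 2 lower (50%). The unfolded protein response had 3 of 22 higher and 2 lower (22.7%), and coagulation 2 of 11 higher and 1 lower (27.3%). Oxidative stress genes under NRF2 had 3 of 17 higher and none lower (17.6%). Vascular tone and barrier genes had 6 of 15 higher and none lower (40%), of which 2 were higher without replicate 3 or 4 at 12 h. Of the members that rose, Cdh5, Cldn5 and Nos3 are also on the endothelial list. Gja5 is on both the laminar flow and the Notch list, so the shares of such lists are not independent. None of 7 smooth muscle and 9 fibroblast markers was called, and of 12 macrophage markers 1 was, Csf1r, the receptor of a macrophage growth factor, which was not called in 6 of the fits that left out an array.

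Among called genes without overlap, with the clock list and predicted genes left out, the largest rise was that of Sphk2, a sphingosine kinase. It had 9.58, 8.97, 9.13, 9.52 and 9.24 at 24 h, against 4.71, 3.54, 5.33, 4.91 and 4.69 at 12 h (log2 difference 4.65 ± 0.32, limma adjusted p = 2.9e-12). Sphk2 overlaps the clock output gene Dbp on chromosome 7 in the RefSeq annotation, and Dbp rose by 4.40 ± 0.34. A second probe set of Sphk2 gave -0.03, so the probe set that rose does not stand for the whole gene, and which transcript it reads was not tested. After Sphk2 and Gja5 came Nhp2, a protein of small nucleolar ribonucleoproteins (1.84), Nrm, the inner nuclear membrane protein nurim (1.73), the integrin chain Itgb4 (1.67) and Ptms, parathymosin (1.65). Except for Sphk2, none of the 12 largest rises was called with the covariate; Itgb4 came nearest (1.16, adjusted p = 0.0625). Cavin1 and Coa7 also counted among the 12 at 1.61 and 1.58, but second probe sets gave 0.03 and -0.07.

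Among the 12 largest falls 6 were called with the covariate: Cdkn1a, Pdk4, Rnf144b, Abcb1b, Nav2 and Lonrf3. Cdkn1a, Rnf144b and Nav2 kept that call whichever array was left out, while Abcb1b lost it in 1 of 10 such fits, Lonrf3 in 6 and Pdk4 in 9. Rnf144b, a ubiquitin ligase, had 7.28, 7.09, 7.08, 7.204 and 7.28 at 24 h, against 9.26, 9.001, 9.30, 9.22 and 9.65 at 12 h. It was 4.28-fold lower (-2.10 ± 0.21, adjusted p = 2.18e-08; -1.82 with the covariate, adjusted p = 2.74e-05). Nav2, a neuron navigator protein, had 6.64, 6.72, 6.63, 6.20 and 5.99 at 24 h, against 8.62, 8.59, 8.60, 8.57 and 8.21 at 12 h, although its other probe sets past the filter gave between -1.01 and -0.14. Abcb1b, a P-glycoprotein drug efflux pump, fell by 2.10 (1.68 with the covariate, adjusted p = 0.0104) and Lonrf3 by 1.78 (1.47 with the covariate, adjusted p = 0.0448). Ccn2, the connective tissue growth factor induced by YAP, fell by 2.09 ± 0.52 (adjusted p = 0.00718) without overlap and was not called with the covariate (-1.70, adjusted p = 0.213).

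Once the clock list, predicted genes and the 12 largest rises and falls were set aside, the smallest p belonged to Ripor2. This inhibitor of the small GTPase RhoA had 5.34, 5.63, 5.63, 5.04 and 5.34 at 24 h, against 7.16, 6.98, 7.09, 7.01 and 6.98 at 12 h (-1.65 ± 0.15, limma adjusted p = 4.4e-09). Its other probe sets past the filter gave -1.26, -0.59 and 0.20. Slc7a2, a transporter of arginine and other cationic amino acids, had 9.55, 8.88, 8.88, 9.31 and 8.98 at 24 h, against 7.71, 8.02, 7.86, 7.72 and 7.80 at 12 h. It rose by 1.30 ± 0.18, its other probe sets rose by 1.02 to 2.23, and with the covariate it stood at 1.21 (adjusted p = 0.00473). The vesicle SNARE Vamp3 rose by 1.17 and the adaptor She by 0.79, with adjusted p = 3.07e-05 for both. These too were called with the covariate, but Vamp3 not in 3 and She not in 1 of the 10 fits that left out an array.

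Clock genes set the scale for the comparison. Of 21 tested 11 were higher and 5 lower, or 76.2% called, against 18.1% of all genes. With the covariate 9 of the 21 were called, against 0.45% of all genes. Arntl, the core activator, had 3.46, 3.65, 3.89, 3.56 and 3.77 at 24 h, against 6.69, 5.57, 7.16, 7.28 and 5.89 at 12 h (-2.85 ± 0.31). Nr1d2, a repressor in the loop, rose by 2.17 ± 0.24 and became 2.42 with the covariate, and Npas2 fell by 3.09 ± 0.37. Per2 was not called (0.32 ± 0.21, adjusted p = 0.288), though its second probe set gave 1.05. Nr1d1 had no named probe set.

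Atorvastatin-treated mice give a second pair of times without shared arrays and with a smaller difference in RNA ends. Their Gapdh end difference was 4.10 ± 0.20 at 24 h and 4.21 ± 0.21 at 12 h (SD, n = 5 each), with overlap and exact permutation p = 0.421. There 113 genes were called between 24 h and 12 h (0.996%), 38 higher and 75 lower, which is 0.335% and 0.661%. Leaving out single arrays gave 38, 50, 188 and 253 without replicates 9, 6, 7 and 10 at 12 h, and 44, 48 and 60 without replicates 9, 10 and 6 at 24 h. Of the 113, 96 had also been called in vehicle, all in the same direction. That is 85.0% of the atorvastatin calls, against 18.1% of all genes called in vehicle, and 4.67% of the vehicle calls. Both comparisons come from 1 fit and share its estimate of the spread of each gene, so the calls are not independent. With only its own 10 arrays in the fit, atorvastatin had 7 genes called. Outside the clock list the shared genes numbered 86, with 26 higher and 60 lower.

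The atorvastatin difference was above 0 for 93.9% of the vehicle rises, against 46.4% of all genes, with a median of 0.32. It was below 0 for 94.8% of the vehicle falls, against 53.5% of all genes, with a median of -0.33. Ripor2 (-1.11), Rnf144b (-1.99), Cdkn1a (-2.23), Nav2 (-1.30), Insig1 (-0.68), Slc7a2 (1.30), Vamp3 (1.05), She (0.46) and Jag1 (0.72) were called under both treatments. Fkbp5 (-1.34, adjusted p = 0.0915) and Pdk4 (-1.23, adjusted p = 0.126) were not, and the median of the glucocorticoid list was -0.33. Sele stood at 1.08 and Fabp4 at -0.27, neither called.

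A direct test found no gene whose change differed between vehicle and atorvastatin (limma, smallest adjusted p = 0.89; 597 genes had an unadjusted p under 0.05). It also found none whose change differed between the RCA and the LCA of the same mice (smallest adjusted p = 0.0708; 1189 unadjusted). The LCA alone had 54 genes called between 24 h and 12 h (0.476%), and its Gapdh end difference was 4.97 ± 0.47 at 24 h and 4.82 ± 0.30 at 12 h. In the LCA Cdkn1a stood at -1.54 and was not called (limma adjusted p = 0.158). Pdk4 and Fkbp5 stood at -1.61 and -1.71 there and were called (limma adjusted p = 0.00469 and 0.0270). The genes that rose in the RCA had a median of 0.19 in the LCA, and those that fell had one of -0.23.

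Levels at the later times of vehicle-treated mice are given without a test, since comparisons among these times share arrays. Cdkn1a averaged 9.05, 6.43, 6.49 and 6.55 at 12 h, 24 h, 48 h and 2 weeks, Mt1 10.92, 9.32, 8.73 and 8.74, and Fkbp5 8.14, 6.43, 6.08 and 6.32. The 3 later times of each gene differed by less than 1 log2 unit, with SDs of up to 0.82 (Fkbp5 at 48 h). Gja5 averaged 8.10, 10.29, 9.61 and 10.04, and Jag1 8.27, 9.48, 9.13 and 9.21. Insig1 averaged 9.25, 8.38, 8.88 and 8.76. The Gapdh end difference averaged 4.74, 4.04, 4.33 and 3.81 at these times.

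**Figure D5:**
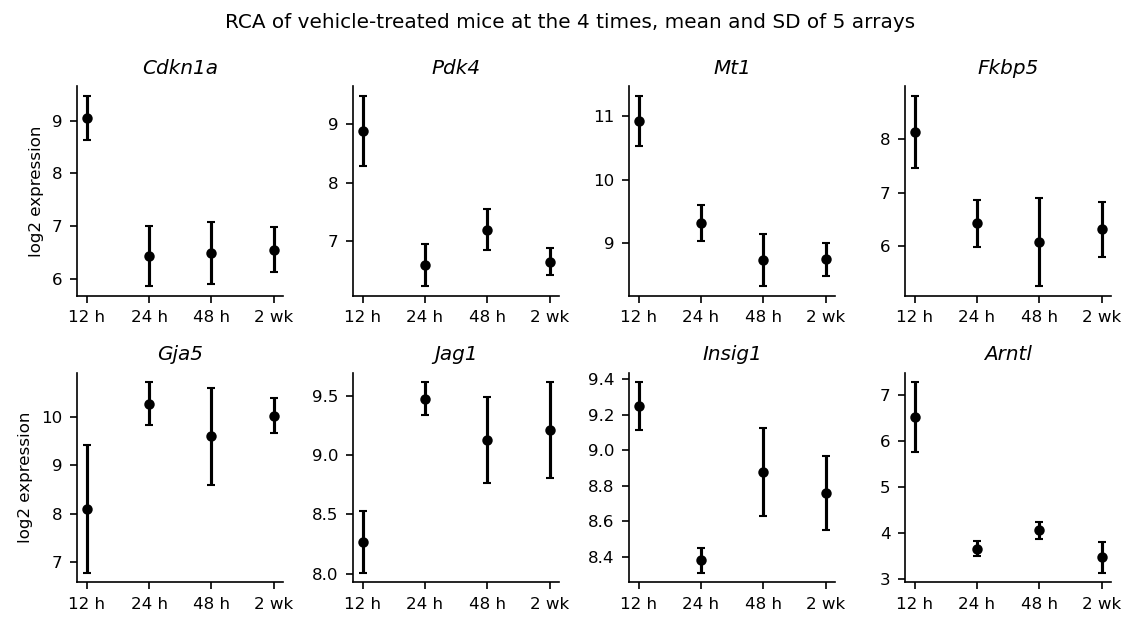
Mean log2 expression with SD (5 arrays each) of 8 genes in the RCA of vehicle-treated mice at 12 h, 24 h, 48 h and 2 weeks after surgery. For Cdkn1a, Pdk4, Mt1, Fkbp5 and Arntl the 12 h mean is highest, while Insig1 is lowest at 24 h (8.38).

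Probe sets of one gene often disagreed. Of the 1030 called genes with more than 1 probe set past the filter, 497 (48.3%) had a probe set on the other side of 0, and 69 had one called in the opposite direction. The range among the probe sets of such a gene had a median of 0.73 on the log2 scale.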

How the data were processed

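Values were the authors' deposited log2 expression values, made with RMA per the submitters' processing notes; no source used here names the software, its version or the chip definition. RMA as usually run gives all arrays a common distribution, so a shift of most genes one way would not show. Samples were extracted and profiled in 4 batches, but the labels do not assign them, so batch could not be tested; the title code's number was tried as a block. Of 45118 probe sets, 28898 had 1 gene symbol. Each gene was represented by its brightest probe set and tested if above the array median on at least 4 of 78 arrays (11344 genes). limma 3.58.1 (R 4.3.3) fitted group means over all 39 RCA arrays, with Benjamini-Hochberg adjustment, without a replicate block. Errors of differences are standard errors. Single values were tested with exact permutation tests. The number of arrays limits the precision. The fits were tested on simulated data.

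The comparison, the 40 gene lists and the rules were chosen with earlier results of these data known. Genes were named as the 12 largest rises and falls without overlap and the 8 smallest p. To these came up to 4 called members of a pathway list and 2 of a cell list, and 10 chosen genes. The rankings by size and by p left out the clock list and predicted genes (Gm numbers, Rik, LOC, and clone or accession names). The same-numbered arrays at 24 h and 12 h came from different mice, and their deviations correlated between -0.17 and 0.01, so numbers did not pair samples. Groups were taken from the labels. Alternatives were other samples in the fit, scalings, filters, probe sets, covariates, blocks, weights and left-out arrays; covariates of cell markers and the repeats of the Gapdh-adjusted fit were added after seeing the data.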

Additional observations from a re-analysis of the deposited data

Results flagged for a closer look

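In 9 of 240 looks at the 5 arrays of a group, over the named genes and both control end differences, 1 array stood apart from the other 4 by more than 0.71 of the group's range; chance gives about 5%. At 24 h, Fabp4 was 7.926 in replicate 2 against 9.170 to 9.564 in the others, Nr1d2 9.308 in replicate 5 against 8.819 to 8.942, and Mt1 9.820 in replicate 3 against 9.122 to 9.254. Also at 24 h, Fosl2 was 8.149 in replicate 1 (others 8.561 to 8.698), Rsad2 4.808 in replicate 3 (others 5.693 to 5.867) and Tgfb1 5.864 in replicate 2 (others 6.451 to 6.640). At 12 h, Nav2 was 8.212 in replicate 5 (others 8.567 to 8.624), Ccnd2 10.631 in replicate 2 (others 10.426 to 10.471) and Psmd7 5.855 in replicate 3 (others 6.125 to 6.172).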

How the results depend on the processing

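At the probe set chosen for each gene, no called named gene changed sign under any alternative run. The run over every named probe set could not show such a change, because it was read at the chosen set. Other probe sets of some of these genes did lie on the other side of 0. Of the 113 called named genes, 78 kept their call with every vehicle array left out in turn. The vehicle count of 2055 stayed within 1.5 times under other scalings, filters, eBayes settings and array weights, under the smooth muscle or adipocyte covariates and with the replicate block (1781). It was 905 with only the 10 arrays compared, 3508 over every named probe set, 51 with the Gapdh and 1216 with the b-actin covariate, 928 with the title-code number as block, and 989 to 2625 without single arrays. The atorvastatin count of 113 was 7 with only its own 10 arrays, 32 with the title-code block, 60 with the replicate block, and 38 to 253 without single arrays. The test of the difference between treatments gave 0 to 1 gene without single arrays; the 1 was Zfp11, without atorvastatin replicate 9 at 12 h, and was singled out after its value was seen. The difference between arteries gave 0 throughout. The Gapdh-adjusted count of 51 was 10 with only the arrays compared, 73 with the 3' minus middle difference as covariate, and 17 to 171 without single arrays. The Gapdh end difference itself (-0.71) lay between -0.78 and -0.58 without single arrays and was -0.95 measured from the middle probe set; the b-actin value of -0.19 did not pass (exact p = 0.365). The share of higher calls was 46% to 62.4% under other scalings, against 55.1%. The 2 title-code numbers held by both times each have 1 array at 24 h and 1 at 12 h, so their values carry no measure of spread. There the glucocorticoid median was -0.93 and -0.95, and the endothelial median 0.49 and -0.05. The first value of each sets replicate 2 at 24 h against replicate 3 at 12 h, the array with the largest Gapdh end difference of the 10. Fewer arrays or degrees of freedom enter the 10-array and block fits; for the other shifts the cause was not tested. Low signals limit dim genes, and precision rests on 5 arrays per group.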

Other observations

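Other gene groups of the same comparison moved unevenly. Of all genes 18.1% were called, against 27.3% for antigen presentation, 22.2% for hypoxia and glycolysis and 18.2% for extracellular matrix. Antigen presentation had 3 of 11 genes higher at 24 h and none lower, while the median of the list was -0.01. The immunoproteasome subunits Psmb9 and Psmb8 rose by 1.20 and 1.13 without overlap and H2-D1, a class I heavy chain, by 0.60. Other probe sets past the filter gave 0.27 for Psmb9 and 0.20, 0.10 and -0.06 for H2-D1. Psmb8 was not called without replicate 3 or 4 at 12 h. Hypoxia and glycolysis had 3 of 18 lower and 1 higher. Pfkp, a phosphofructokinase, fell by 0.80 (-0.74 at a second probe set) and Bnip3, a mitophagy receptor, by 0.99. The glucose transporter Slc2a1 rose by 0.85 (0.14 at a second probe set). The extracellular matrix list had 3 of 22 lower and 1 higher, with Lox, the collagen cross-linking oxidase, up by 1.10 although a second probe set past the filter gave -0.03. Ccnd2, a G1 cyclin, rose by 0.46, and its 5 other probe sets rose by 0.71 to 1.55. None of these genes except Ccnd2 was called with the Gapdh covariate (0.47, limma adjusted p = 0.0144).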
